A study of Mus musculus with 15 samples.

Results

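The synaptic vesicle release machinery was followed through 39 genes of 23132 genes kept for analysis, in the foetal cortex and in cultured cortical neurons of mice with and without *Phf6*. The members were chosen by name as vesicle, SNARE and active zone genes, and all 39 were found in the count table and passed the filter on low counts in every comparison. The data comprised 15 RNA sequencing libraries of male C57BL/6 foetuses: E15.5 cortices from 3 Phf6+/Y controls and 5 Phf6-/Y littermates of litters 1 to 3, and E16.5 cortical neurons of litters 4 to 7, in which Phf6+/Y;Nes-cre Tg/+ controls (n = 3) were set against foetuses with the floxed allele, Phf6 lox/Y;Nes-cre Tg/+ (n = 4). Total counts per library lay between 16858007 and 31157700. The deletion removes exons 4 and 5 of *Phf6*, and every neuron culture, controls included, carried the Nes-cre transgene, active in the progenitors of the nervous system and thereby in the cells they give rise to, whereas no cortex carried it. The neurons were dissociated, plated and kept in culture for a day, so tissue, foetal age, litter, dissociation, culture and Nes-cre changed together between the cortices and the cultures and cannot be told apart. *Phf6* itself checked the labels: it lay at 149 to 191 CPM (counts relative to library size, scaled by TMM, the trimmed mean of M values) in control cortices against 42.4 to 55.2 in Phf6-/Y cortices, and at 228 to 259 CPM in control neurons against 59.9 to 85.8 in Phf6-deleted neurons.

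A synaptic vesicle is filled with transmitter, tethered by synapsins, docked and primed at the active zone by Rab3, RIM, Munc13 and the scaffold proteins Bassoon and Piccolo, and then fused with the plasma membrane by SNARE proteins when calcium binds to a synaptotagmin. Complexins bind the assembled SNARE complex, and dynamin cuts the spent vesicle membrane free for reuse. Young cortical neurons transcribe many of these genes before they form synapses.

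A set of 4 promoters illustrates the members that were higher in culture (*Syn1* and *Cplx1*) and lower in culture (*Sv2b* and *Slc17a7*). The RefSeq promoter table of GRCm38.p6 held windows for 28 of the 39 members. Each line below gives the 250 bases before the annotated start site on the strand of the gene. The windows lie at chrX:20920919-20921168 (minus strand, *Syn1*), chr5:108550028-108550277 (minus, *Cplx1*), chr7:75309263-75309512 (minus, *Sv2b*) and chr7:45163671-45163920 (plus, *Slc17a7*). Capitals mark matches on either strand to TGACGTCA (the cyclic AMP response element), GGGCGG (the SP1 box), TATAAA (the TATA box) and, with up to 1 mismatch, the RE1 element of the neuronal silencer REST.
Syn1: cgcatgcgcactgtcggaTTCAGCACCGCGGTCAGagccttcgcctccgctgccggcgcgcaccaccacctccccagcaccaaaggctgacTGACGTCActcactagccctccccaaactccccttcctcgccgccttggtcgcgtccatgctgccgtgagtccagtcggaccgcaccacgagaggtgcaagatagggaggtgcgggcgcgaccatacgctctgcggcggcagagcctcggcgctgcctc
Cplx1: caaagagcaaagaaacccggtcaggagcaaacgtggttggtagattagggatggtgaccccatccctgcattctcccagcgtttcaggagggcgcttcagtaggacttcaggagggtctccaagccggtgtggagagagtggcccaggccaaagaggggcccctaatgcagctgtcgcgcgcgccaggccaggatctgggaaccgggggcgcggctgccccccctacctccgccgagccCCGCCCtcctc
Sv2b: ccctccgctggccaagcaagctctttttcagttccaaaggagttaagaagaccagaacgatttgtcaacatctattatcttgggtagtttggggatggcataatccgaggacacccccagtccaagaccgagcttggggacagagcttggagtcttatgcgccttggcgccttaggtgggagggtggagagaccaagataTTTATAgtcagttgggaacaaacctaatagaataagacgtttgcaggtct
Slc17a7: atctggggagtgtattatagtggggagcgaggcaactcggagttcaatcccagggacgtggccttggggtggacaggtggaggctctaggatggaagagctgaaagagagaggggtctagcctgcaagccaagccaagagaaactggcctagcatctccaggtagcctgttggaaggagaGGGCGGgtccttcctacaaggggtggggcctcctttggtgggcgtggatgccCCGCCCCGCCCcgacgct

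The *Syn1* window was 68.0% G and C and held an RE1 match beginning 232 bases before the start site and the response element beginning 159 bases before it. The 28 members had 36 windows, and shares are given over windows for the members and for all 32851 windows of the table. The response element was found in 2.78% of the members' windows (*Syn1*) and in 1.55% of all windows, and the relaxed RE1 match in 8.33% (*Syn1*, *Vamp1* and *Erc2*) and 0.785%. The SP1 box was present in 63.9% of the members' windows, in 22 of the 28 genes, and in 32.7% of all windows. The TATA box was found in 8.33% (*Sv2b*, whose window was 48.8% G and C, and *Rab3b*) and 12.4%. An EGR motif, GCGGGGGCG, which can overlap the SP1 box, was found in 5.56% (*Syn2* and *Syngr1*) and 2.57%. These are matches of letters and not measured binding.

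The libraries differed in cell makeup, and the first replicate of the Phf6-/Y cortices, from litter 3, stood apart. Its summed level of 5 diencephalon markers was 414.7 CPM, against 31.9 to 55.9 in the other 7 cortices, its 6 excitatory cortical markers summed to 1214 CPM against 2035 to 2257, and its 12 pan-neuronal markers summed to 9307 CPM, the lowest of the 15 libraries. From cortex to culture, the pan-neuronal sum moved from 9307 to 11940 CPM up to 15380 to 17480, while 9 radial glia markers moved from 1713 to 2077 CPM down to 466 to 699 and 6 GABAergic markers from 523 to 700.0 CPM down to 112 to 201. Endothelial markers summed to 109 to 244 CPM in the cortices and to 3.34 to 6.43 CPM in the cultures. In such bulk samples, fewer cells of a type and less RNA per cell cannot be told apart.

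Levels between members were compared per length, as CPM per kilobase. In control cortices, *Rab3a* (a vesicle GTPase) was the highest member at 129 ± 2.41 CPM per kb (SD, n = 3), followed by *Snap47* (a SNAP25-like SNARE whose exons share 11.6% of their bases with *Jmjd4*) at 112 ± 4.26, *Vamp2* (the vesicle SNARE) at 95.8 ± 10.5 and *Syt11* (a synaptotagmin that does not bind calcium) at 90.2 ± 0.956. *Vamp2* and *Syt11* did not differ beyond their spread. At the other end, *Pclo* stood at 3.63 ± 0.333, *Vamp1* at 2.07 ± 0.541, *Sv2c* at 0.738 ± 0.213 and *Syt2* at 0.683 ± 0.0293 CPM per kb, the last pair again within their spread. In control neurons, *Rab3a* at 168 ± 9.24 and *Syt4* at 166 ± 20.9 CPM per kb shared the top within their spread, and *Vamp2* at 144 ± 5.45 came after them. *Sv2c* (0.390 ± 0.163) and *Syt13* (0.474 ± 0.158) were lowest and also within their spread. Added together, the 39 members summed to 3860 to 3991 CPM in control cortices and 3949 to 4687 CPM in Phf6-/Y cortices. They summed to 5497 to 6281 CPM in control neurons and 5826 to 6606 CPM in Phf6-deleted neurons. The summed levels of the cortices and the cultures did not overlap.

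Control neurons were set against control cortices to ask how the machinery differed between the tissue and the cultures. Of the 39 members, 21 were higher and 7 were lower in culture at a false discovery rate (FDR) below 0.05 (edgeR's quasi-likelihood test over 15001 genes, Benjamini-Hochberg adjustment), where 24.8% of all genes tested were higher and 27.3% lower. The median log2 fold change was 0.377 over the members and -0.036 over all genes tested. By role, 6 of 9 vesicle proteins and 5 of 9 synaptotagmins and Doc2 proteins rose. So did 4 of 7 SNAREs and complexins and 5 of 11 Rab3 and active zone proteins. The falls were 2 vesicle proteins, 2 of the synaptotagmins and Doc2 proteins, 1 SNARE, 1 active zone protein and 1 glutamate transporter. Both pan-neuronal and progenitor markers moved between the same libraries, and their part in these differences was not tested.

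**Figure D1:**
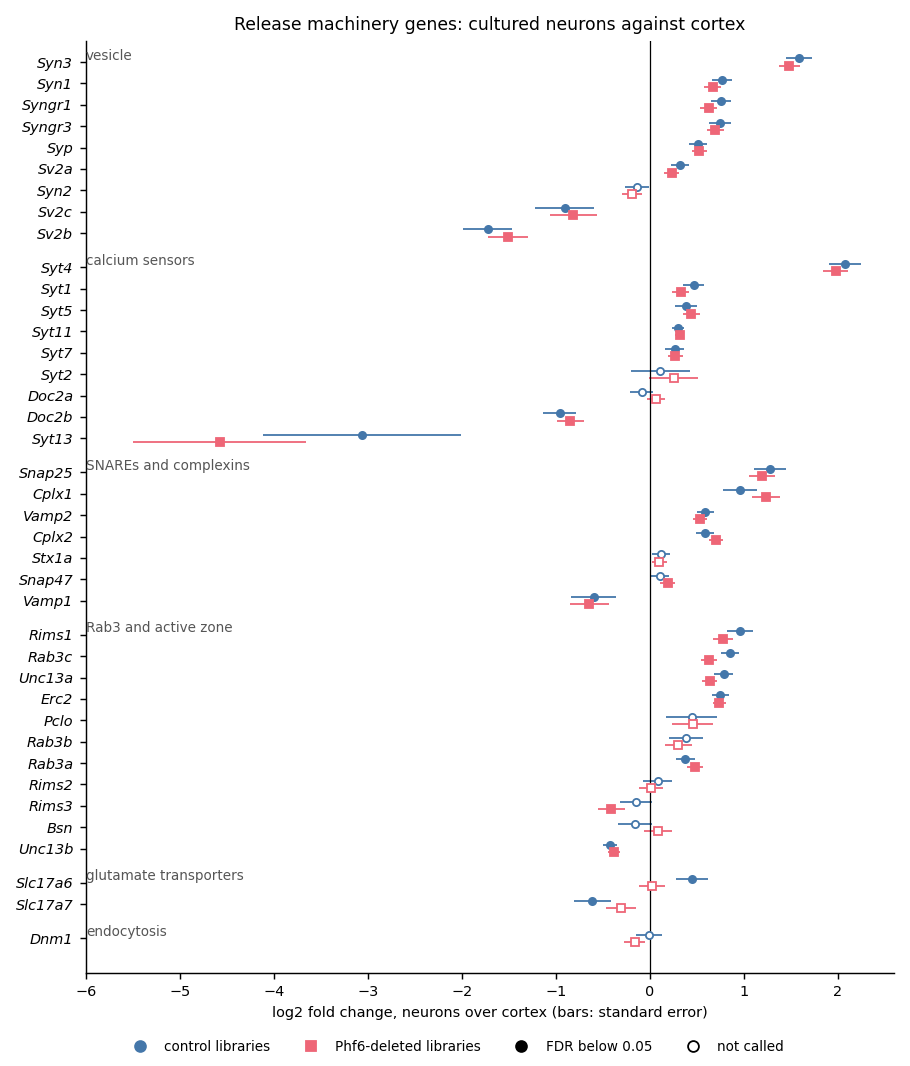
Log2 fold change of each member, neurons over cortex, with its standard error, in the control libraries (circles) and the Phf6-deleted libraries (squares), grouped by role; filled symbols have an FDR below 0.05. Most members lie to the right of 0, while *Syt13*, *Sv2b*, *Doc2b* and *Sv2c* lie to the left in both genotypes. The group labelled calcium sensors holds the synaptotagmins and Doc2 proteins, not all of which bind calcium.

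Among the members that rose most, *Syt4* (chromosome 18, 31437808 to 31447415), an atypical synaptotagmin also found on dense-core vesicles, was counted at 115, 178 and 167 CPM in the 3 control cortices and at 574, 636 and 736 CPM in the 3 control cultures. Every culture lay above every cortex, and levels were 4.23-fold higher in culture (log2 fold change 2.08 ± 0.17 SE, the standard error, FDR = 1.6e-07). *Syn3* (chromosome 10, 86048746 to 86498926), the synapsin expressed earliest in developing neurons, went from 91.7, 97.1 and 94.3 CPM to 260, 260 and 330 CPM (log2 fold change 1.59 ± 0.14 SE, FDR = 1.2e-07). Its exons share 14.1% of their bases with *Timp3*, which lies within it. *Snap25* (chromosome 2, 136713439 to 136782428), the plasma membrane SNARE, read 82.9, 83.2 and 93.7 CPM in cortices and 184, 217 and 229 CPM in cultures (log2 fold change 1.28 ± 0.17 SE, FDR = 1.39e-05). For both genes every culture lay above every cortex, as for 22 members in all and 4202 of the 15001 genes tested. *Cplx1*, a complexin, went from 60.2, 63.6 and 68.6 CPM to 122, 124 and 128 CPM (log2 fold change 0.96 ± 0.18 SE, FDR = 0.000383), and *Rims1*, a scaffold that links Rab3, Munc13 and calcium channels, from 18.2, 22.1 and 21.4 CPM to 33.6, 36.5 and 49.6 CPM (log2 fold change 0.96 ± 0.14 SE, FDR = 1.63e-05). The other 16 members that rose did so by 0.26 (*Syt7*) to 0.85 (*Rab3c*) on the log2 scale, *Syn1*, *Syngr1*, *Syngr3*, *Erc2* and *Unc13a* by 0.75 to 0.78.

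The members that fell were led by *Syt13* (chromosome 2, 92915101 to 92956051), a synaptotagmin without calcium-binding residues. It read 19.2, 14.8 and 11.3 CPM in control cortices and 2.38, 1.20 and 1.75 CPM in control cultures (log2 fold change -3.07 ± 1.05 SE, FDR = 0.0287). The fit shared its estimate of the spread over all 4 groups, and 1 Phf6-/Y cortex stood at 161 CPM. Fitted on the control libraries alone, the change was -3.07 ± 0.27 SE (FDR = 2.03e-06). *Sv2b* (chromosome 7, 75114894 to 75309262), a vesicle glycoprotein, went from 20.7, 31.4 and 21.2 CPM to 6.27, 7.11 and 8.81 CPM (log2 fold change -1.73 ± 0.26 SE, FDR = 4.56e-05). *Doc2b* (chromosome 11, 75768270 to 75796060), a calcium sensor of spontaneous release, went from 23.9, 23.8 and 20.9 CPM to 9.65, 12.6 and 13.1 CPM (log2 fold change -0.96 ± 0.18 SE, FDR = 0.00018). Both sets of libraries stayed apart for these 3 genes, as for all 7 members that fell. Every culture likewise lay below every cortex for 4695 of the 15001 genes tested. *Sv2c* was at 2.41, 2.85 and 4.15 CPM against 1.91, 0.877 and 2.19 CPM (log2 fold change -0.91 ± 0.32 SE, FDR = 0.0223), and *Slc17a7*, the vesicular glutamate transporter VGLUT1, was at 66.0, 59.2 and 56.2 CPM against 29.9, 45.1 and 43.8 CPM (log2 fold change -0.61 ± 0.19 SE, FDR = 0.0149). *Vamp1* (-0.60) and *Unc13b* (-0.42) completed the 7.

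**Figure D2:**
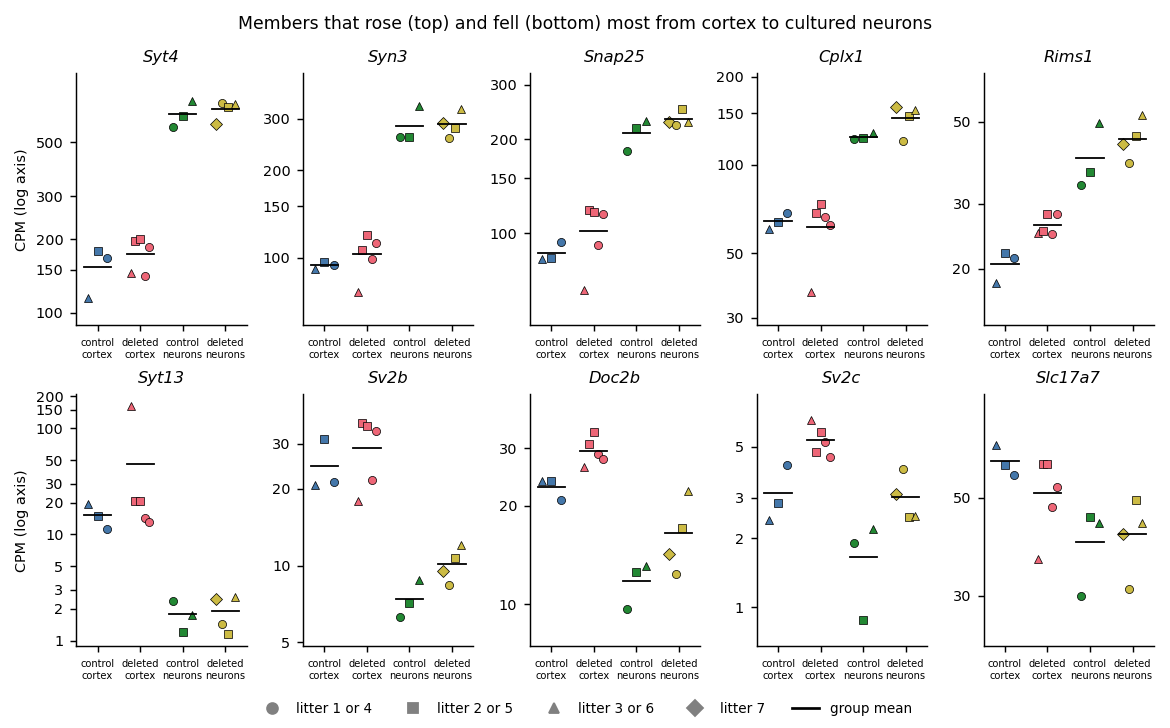
CPM per library on log axes for the 5 members that rose most and the 5 that fell most from control cortex to control neurons; symbols give the litter and lines the group mean. The *Syt13* value of 161 CPM belongs to the litter 3 Phf6-/Y cortex, and the *Syt4* cultures all sit at 574 CPM or above.

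The remaining 11 members were not called. They were *Syn2*, *Syt2*, *Doc2a*, *Snap47*, *Stx1a*, *Rab3b*, *Rims2*, *Rims3*, *Bsn*, *Pclo* and *Dnm1*, with log2 fold changes between -0.16 (*Bsn*) and 0.44 (*Pclo*). *Pclo* and *Bsn*, the giant scaffolds of the active zone, varied widely among the cultures: *Pclo* read 117, 68.2 and 141 CPM and *Bsn* 153, 117 and 157 CPM in the 3 control cultures. The *Doc2a* exons share 39.4% of their bases with *Ino80e*, those of *Rab3b* 9.0% with 8030443G20Rik and those of *Unc13a* 3.92% with *Colgalt1*, so the counts of these genes are uncertain. *Dnm1*, the neuronal dynamin, differed by -0.01 with a standard error of 0.14.

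Scaled instead to 12 pan-neuronal markers, so that levels are read relative to neuronal transcripts, 11 members were higher and 16 lower, against 5.48% and 58.4% of all genes. This scaling moved the median of all genes to -0.520 and that of the members to -0.109, a shift that any change of scaling gives to all genes alike. *Syt4*, *Syn3*, *Snap25*, *Cplx1* and *Rims1* remained higher at log2 fold changes of 1.59, 1.10, 0.79, 0.48 and 0.47. The fold changes of *Syt1*, *Syt5*, *Syt7*, *Syt11*, *Sv2a*, *Slc17a6* and *Rab3a*, all smaller than that shift, changed sign, and of these *Syt7* and *Syt11* were lower at an FDR below 0.05.

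A group of 6 calls was lost when single control libraries were left out, while every fold change kept its sign. The fall of *Syt13* lost its call without control cortex replicate 1 or any of the 3 control cultures (FDR up to 0.0846), with log2 fold changes of -3.35 to -2.85 over the 6 omissions. The fall of *Vamp1* lost its call without 5 of the 6 control libraries, control cortex replicate 3 being the exception (FDR up to 0.212, log2 fold changes of -0.78 to -0.41). *Sv2c* lost it without control cortex replicate 3 (FDR = 0.119) or control neurons replicate 2 (FDR = 0.114), with changes of -1.15 to -0.60, and *Slc17a7* without control cortex replicate 1 (FDR = 0.0565) or control neurons replicate 1 (FDR = 0.0698), with changes of -0.71 to -0.44. The rise of *Slc17a6* was lost without any of the control libraries but neurons replicate 1 (FDR up to 0.103, changes of 0.40 to 0.52), and that of *Syt7* without 4 of them (FDR up to 0.148, changes of 0.20 to 0.34). The other 22 calls held with each control library left out.

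In the Phf6-deleted libraries, 21 members were higher and 7 lower in culture at an FDR below 0.05, in the same fit and so with the same scaling and estimate of the spread as the control comparison, against 27.9% and 31.0% of all genes. Of these, 20 higher and 6 lower members were shared with the control comparison. *Snap47* was higher and *Rims3* lower in the deleted libraries only by this threshold, while *Slc17a6* (0.02) and *Slc17a7* (-0.31) were not called there. Without the litter 3 cortex, 20 members were higher and 9 lower, *Slc17a7* fell (-0.41, FDR = 0.0188), and the log2 fold change of *Syt13* went from -4.57 (standard error 0.92) to -3.17 (standard error 0.27).

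Several paralogues that share a function took different shares of their group in tissue and culture. The share was computed per length in each library. *Unc13b* made up 46.5% ± 2.3 (SD, n = 3) of *Unc13a* and *Unc13b*, the priming factors of the Munc13 family, in control cortices and 27.3% ± 1.6 (SD, n = 3) in control neurons. *Syn3* rose from 13.8% ± 1.3 to 23.8% ± 1.4 of the 3 synapsins while *Syn2* went from 19.2% ± 2.3 to 10.0% ± 1.1, with *Syn1* at 67.0% and 66.2%. Neither pair of shares overlapped between control cortices and control neurons. *Rims1* went from 21.4% ± 3.0 to 35.2% ± 3.2 of *Rims1*, *Rims2* and *Rims3*, and *Sv2b* from 10.5% ± 1.4 to 2.81% ± 0.42 of the SV2 genes, in which *Sv2a*, the target of the antiepileptic drug levetiracetam, held 87.7% and 96.3%.

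*Slc17a7* made up 62.7%, 59.9% and 58.7% of the glutamate transporter pair in the control cortices and 38.4%, 43.8% and 44.1% in the control cultures, with *Slc17a6* (VGLUT2) taking the rest. In the Phf6-/Y cortices the share of *Slc17a7* was 37.3% in the litter 3 library with the high diencephalon markers and between 53.4% and 58.9% in the other 4. In the Phf6-deleted cultures it was 38.3% to 55.0%, which overlapped the Phf6-/Y cortices with and without the litter 3 library. The *Doc2b* share of the Doc2 pair was 38.7% ± 0.84 in control cortices and 25.6% ± 1.6 in control neurons. It was 46.2% ± 0.89 in Phf6-/Y cortices and 31.2% ± 4.8 in Phf6-deleted neurons. The cortex ranges by genotype, 37.9% to 39.6% and 44.9% to 47.2%, did not overlap, but the *Doc2a* counts in the pair are uncertain. The cortex ranges of *Rab3a* (81.87% to 82.39% and 73.39% to 79.35%) and *Rab3c* (14.11% to 15.3% and 16.59% to 23.67%) did not overlap either. In the neurons, those of *Syn1*, *Sv2a*, *Sv2c*, *Syngr1* and *Syngr3* did not overlap by genotype. Shares within a group are complementary, so *Syngr1* and *Syngr3* give the same result, and *Sv2a* with *Sv2c*, and *Rab3a* with *Rab3c*, are linked. These shares were picked after all were seen, and their genotype differences were not tested. Among levels of all genes, 2.47% lay above and 2.55% below throughout in deleted cortices, and 3.61% and 3.62% in deleted neurons. Between the control tissues, *Cplx1* was 30.8% ± 1.6 of the complexins in cortices and 36.7% ± 1.9 in neurons. *Rab3c* was 14.8% ± 0.65 and 19.5% ± 2.6 of the Rab3 genes, and *Pclo* 26.8% ± 2.3 and 34.9% ± 4.9 of its pair with *Bsn*. *Syngr1* ranged from 36.4% to 42.0% of the synaptogyrins in control cortices and from 39.1% to 39.3% in control neurons. *Vamp2* held 97.9% and 99.1% of the VAMP pair, and *Syt1*, the fast calcium sensor, 97.8% and 98.3% of its pair with *Syt2*.

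**Figure D3:**
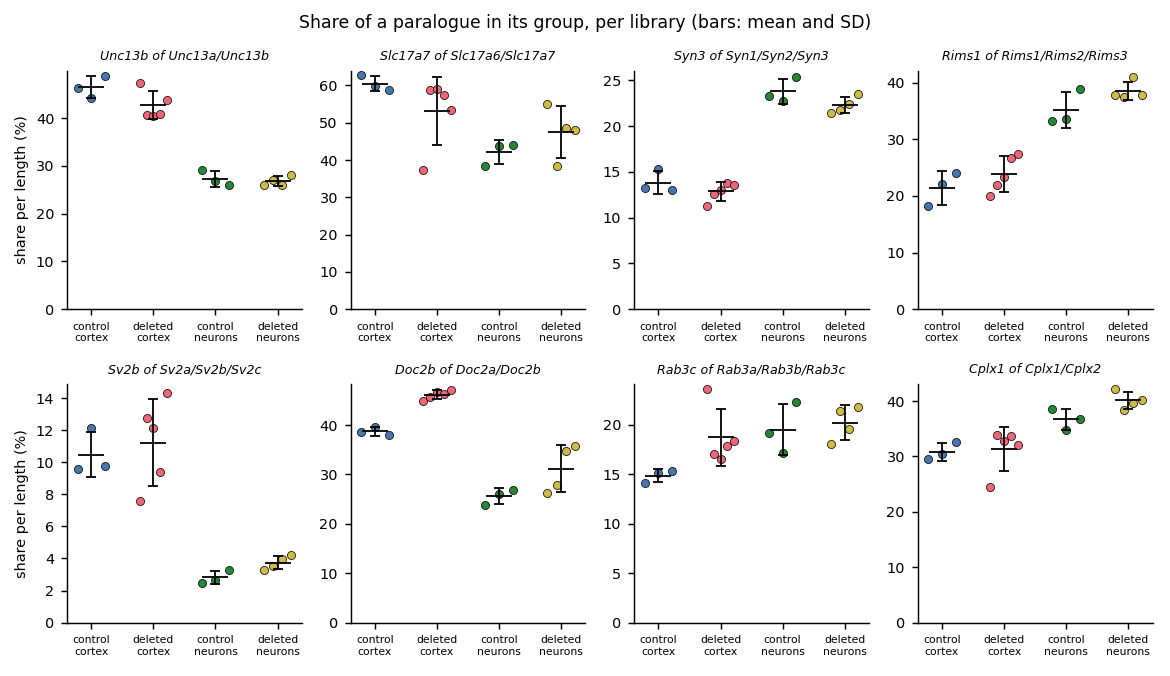
Share of a paralogue in its group, per length and in percent, for each library, with the mean and SD of each of the 4 groups. The *Unc13b* share is lower in both sets of cultures than in every cortex. The lone low *Slc17a7* point among the cortices, at 37.3%, is the litter 3 Phf6-/Y cortex.

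Phf6-/Y cortices were then compared with their control littermates, to ask whether the machinery depends on *Phf6* in the tissue. No member was called at an FDR below 0.05 in either direction (edgeR's quasi-likelihood test over 14750 genes with litter as a term), where 0.319% of all genes were higher and 0.0678% lower. At an unadjusted p below 0.05, 11 members were higher and 1, *Cplx2*, was lower, against 5.69% and 4.77% of all genes. Fold changes were above 0 for 31 members, and the median log2 fold change was 0.126 over the members and -0.002 over all genes. limma-trend also called 0 members, with 11 higher and 2 lower at an unadjusted p below 0.05, and DESeq2 called 3 as higher, *Pclo*, *Rab3c* and *Dnm1*, against 1.04% of all genes. Every Phf6-/Y cortex lay above every control cortex for 5 members (*Sv2c*, *Syt1*, *Doc2b*, *Rab3c* and *Rims1*), as for 2.47% of all genes, and below for none, as for 2.55%.

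*Pclo* (chromosome 5, 14514906 to 14863465) had the smallest p of the 39. It was counted at 75.2, 76.5 and 88.5 CPM in control cortices and at 81.9, 103, 115, 112 and 121 CPM in Phf6-/Y cortices, and only the litter 3 library lay within the control range. Over the litters the change was 0.36 ± 0.08 SE on the log2 scale (FDR = 0.09), and within litters 1, 2 and 3 the difference was 0.39, 0.51 and 0.12. *Rab3c*, a Rab3 GTPase, read 187, 200 and 210 CPM against 266, 232, 256, 221 and 240 CPM without overlap (log2 fold change 0.29 ± 0.07 SE, FDR = 0.149). *Doc2b* read 23.9, 23.8 and 20.9 CPM against 26.3, 30.9, 33.8, 28.9 and 27.8 CPM (log2 fold change 0.35 ± 0.10 SE, FDR = 0.17), and *Rims1* 18.2, 22.1 and 21.4 CPM against 24.9, 25.3, 28.1, 24.7 and 28.1 CPM (log2 fold change 0.33 ± 0.10 SE, FDR = 0.22). The 2 groups stayed apart for both genes. *Dnm1* overlapped between genotypes, at 110, 111 and 90.3 CPM against 128, 136, 131, 108 and 115 CPM (log2 fold change 0.26 ± 0.06 SE, FDR = 0.139). It was higher in Phf6-/Y cortices within each of the 3 litters, as were 16 of the members in all.

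Litters did not contribute alike. In litters 1 and 2, 29 and 34 of the 39 members were higher in the Phf6-/Y cortices than in the control of the litter, with median differences of 0.107 and 0.194 on the log2 scale, where 46.7% and 52.4% of all genes were higher. In litter 3, whose only Phf6-/Y cortex was the library that stood apart, 21 members were higher, with a median of 0.011 against 0 for all genes. Without that library, 15 members were higher and 0 lower at an unadjusted p below 0.05, against 5.3% and 3.1% of all genes, the median was 0.165, and again 0 were called. The fold change of *Syt13* went from 1.11 (standard error 0.63) to 0.38 (standard error 0.13), that of *Slc17a7* from -0.30 to -0.08, that of *Slc17a6* from 0.21 to 0.06 and that of *Cplx1* from -0.17 to 0.03, while *Pclo* stood at 0.45 (FDR = 0.0601). Without control cortex replicate 2, 24 members were above 0 rather than 31, and the median was 0.088. The pan-neuronal marker sum of Phf6-/Y cortices, 9307 to 11940 CPM, spanned that of the controls, 10320 to 10800 CPM, while radial glia markers summed to 1713 to 1758 CPM in the Phf6-/Y cortices of litters 1 and 2 against 1918 to 1959 CPM in controls, and Cajal-Retzius markers to 341 to 391 CPM against 257 to 294 CPM. The litter 3 library lay at 2077 and 254.9 CPM. The part of these cells in the members' values was not tested.

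By role, the active zone and Rab3 genes had a median log2 fold change of 0.203 in the cortex, with 10 of 11 above 0 and 5 higher at an unadjusted p below 0.05, as were 5.69% of all genes. The vesicle proteins had a median of 0.092 (9 of 9 above 0). The synaptotagmins and Doc2 proteins had 0.126 (7 of 9), and the SNAREs and complexins -0.089 (3 of 7). Without the litter 3 library the medians were 0.210, 0.191, 0.166 and 0.031 in the same order, with 4 of 7 SNAREs and complexins above 0. In the neurons they were 0.130, 0.087, 0.132 and 0.032, again with 4 of 7 SNAREs and complexins above 0. The differences between roles were not tested, and no member passed the FDR threshold.

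**Figure D4:**
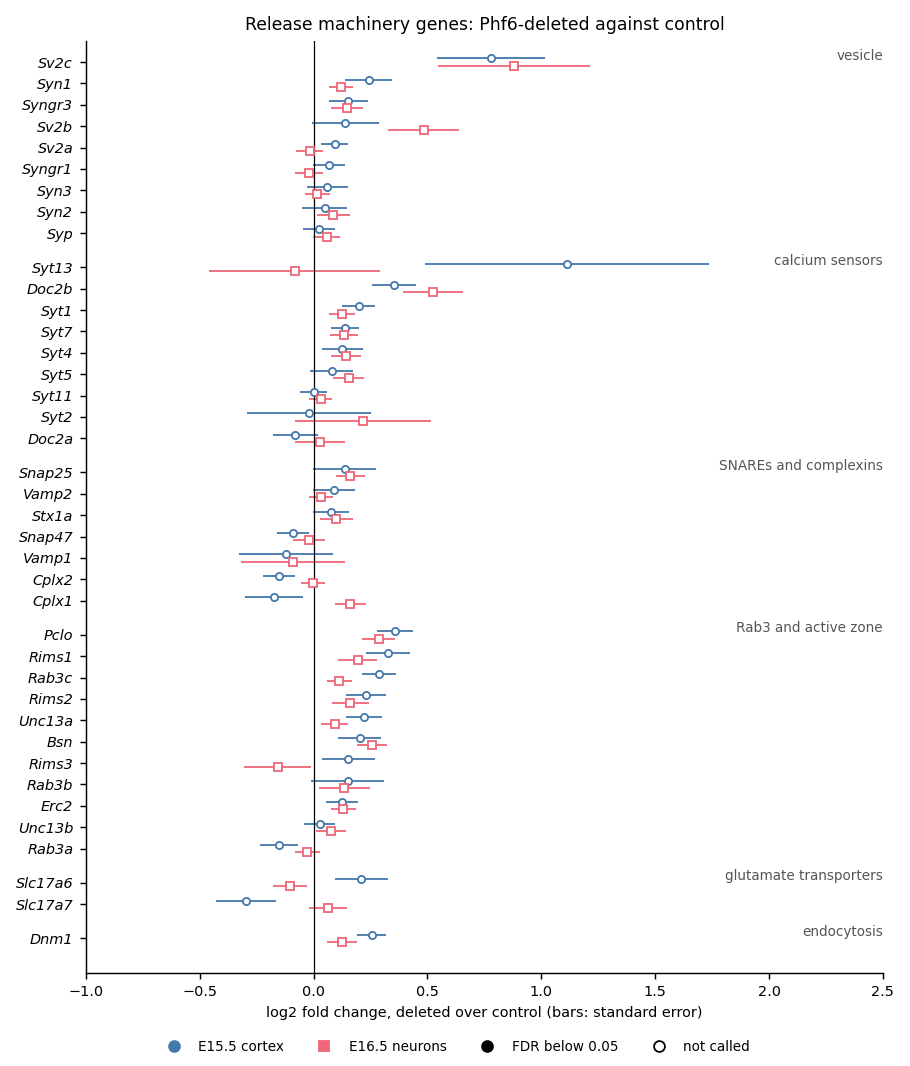
Log2 fold change of each member, Phf6-deleted over control, with its standard error, in E15.5 cortex (circles) and E16.5 neurons (squares), grouped by role. The group labelled calcium sensors holds the synaptotagmins and Doc2 proteins, not all of which bind calcium. All symbols are open because no member had an FDR below 0.05; 31 members in cortex and 30 in neurons lie above 0.

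In the E16.5 neurons the same question was put to 13909 genes. No member was called in either direction, where 0.194% of all genes were higher and 0.0791% lower at an FDR below 0.05. An unadjusted p below 0.05 was reached by 14 members that were higher and by 0 that were lower, against 5.87% and 4.46% of all genes, and 30 members were above 0, with a median log2 fold change of 0.113 against 0.001 for all genes. limma-trend and DESeq2 also called 0 members, with 13 and 7 higher at an unadjusted p below 0.05, and DESeq2 gave no adjusted p for *Syt2*, *Sv2c* and *Syt13*. The deleted culture of litter 7 had no control littermate and so did not bear on this estimate, which rested on 3 pairs and left 2 residual degrees of freedom. *Sv2c* was the only member for which every deleted culture lay above every control culture, as for 3.61% of all genes, and no member lay below throughout, as did 3.62% of all genes.

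The 5 members with the smallest p in the neurons included *Pclo* and *Doc2b*, as in the cortex, with *Bsn*, *Sv2b* and *Sv2c*. *Pclo* read 117, 68.2 and 141 CPM in the control cultures of litters 4, 5 and 6 and 153, 90.1 and 149 CPM in their deleted littermates, with 191 CPM in the culture of litter 7. Litter 5 was the lowest in both genotypes, and within litters the change was 0.29 ± 0.07 SE on the log2 scale (FDR = 0.135). *Bsn* (chromosome 9, 108096022 to 108190419) read 153, 117 and 157 CPM against 162, 150 and 198 CPM in the same litters, with 272 CPM in litter 7 (log2 fold change 0.26 ± 0.07 SE, FDR = 0.141). *Doc2b* read 9.65, 12.6 and 13.1 CPM against 12.3, 17.1 and 22.2 CPM, with 14.3 CPM in litter 7 (log2 fold change 0.52 ± 0.13 SE, FDR = 0.136). All 3 were higher in the deleted culture of each pair, as were 18 of the members in all. They were chosen by p from these same pairs, so this agreement is not separate support. *Sv2b* was at 6.27, 7.11 and 8.81 CPM against 8.39, 10.7 and 12.01 CPM, with 9.51 CPM in litter 7 (log2 fold change 0.48 ± 0.16 SE, FDR = 0.262), and *Sv2c* at 1.91, 0.877 and 2.19 CPM against 4.01, 2.48 and 2.499 CPM, with 3.10 CPM in litter 7 (log2 fold change 0.88 ± 0.33 SE, FDR = 0.36). Per length, *Sv2c* was the least abundant member in control neurons.

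**Figure D5:**
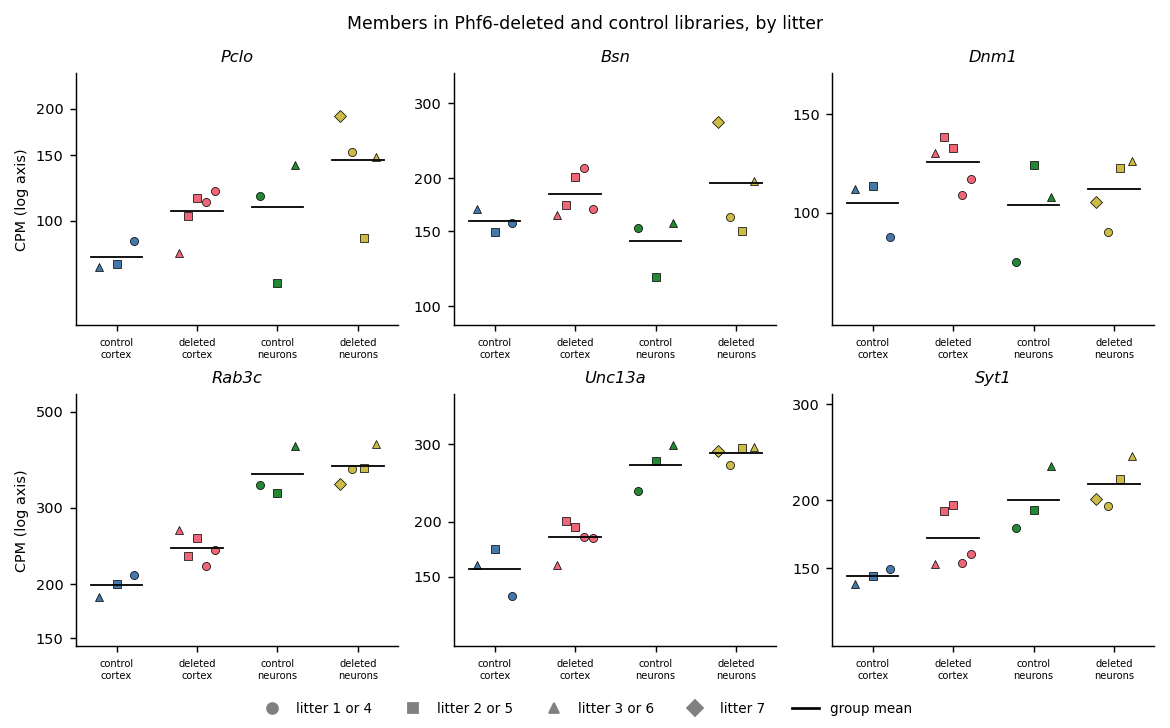
CPM per library on log axes for *Pclo*, *Bsn*, *Dnm1*, *Rab3c*, *Unc13a* and *Syt1*; symbols give the litter, so that littermates share a symbol within a tissue, and lines give the group mean. *Rab3c* and *Syt1* of the Phf6-/Y cortices lie above all 3 control cortices, while the groups of neurons overlap.

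Some calls appeared when single libraries were left out of the neuron comparison, which left 1 residual degree of freedom when a culture of litters 4 to 6 was removed. Without control replicate 3, 4 members were higher at an FDR below 0.05 (*Syt4*, *Snap25*, *Pclo* and *Bsn*), against 2.38% of all genes, and without its littermate, deleted replicate 4, 3 were (*Syt4*, *Snap25* and *Pclo*), against 1.85%. Without control replicate 1 or without its littermate, deleted replicate 2, *Bsn* and *Doc2b* were called, against 0.498% and 0.53%. With litter as a term, leaving out either culture of a pair removes that pair from the estimate. Both omissions of a pair therefore rest on the same remaining pairs, and the second does not repeat the first independently. Without the filter on low counts, *Pclo*, *Bsn* and *Doc2b* were called in the neurons, against 0.985% of all genes, and *Pclo* in the cortex, against 0.51%. Within litters 4, 5 and 6, 27, 26 and 32 members were higher in the deleted culture, with medians of 0.055, 0.103 and 0.082, where 51.0%, 49.0% and 50.4% of all genes were higher.

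The deleted and control cultures also differed in markers of other cells, beside which the values above stand. Summed diencephalon markers were low, at 10.8 to 12.7 CPM in control and 17.1 to 20.5 CPM in deleted cultures. Only 3 of these 5 genes passed the low-count filter, with 2 fold changes above 0 (1 at an FDR below 0.05) and 1 below 0. Cajal-Retzius markers lay at 92.1 to 138 CPM and 157 to 336 CPM, and pan-neuronal markers at 15380 to 16490 CPM and 16230 to 17480 CPM. The Cajal-Retzius list includes *Reln*, the paper's top differentially expressed gene in these neurons, so its sum is not a count of cells. Choroid plexus markers were low, at 0.770 to 3.14 CPM and 2.65 to 23.0 CPM. Only 1 of these 4 genes passed the low-count filter, and it was higher at an FDR below 0.05. The 6 markers of dividing cells were all below 0 in log2 fold change, 4 of them at an unadjusted p below 0.05, where 4.46% of all genes were lower, with sums of 294 to 481 CPM and 260 to 454 CPM. The 3 markers of intermediate progenitors were all lower at that p, with sums of 146 to 254 CPM and 139 to 207 CPM. The part of these cells in the members' values was not tested.

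The genotype effects of neurons and cortex were compared with each other in a single fit. For no member did they differ at an FDR below 0.05, as they did for 0.0133% of the 15001 genes tested, and 0 of 39 reached an unadjusted p below 0.05, against 5.19% of all genes. limma-trend and DESeq2 also called 0, and 2 members reached an unadjusted p below 0.05 in DESeq2. The differences, neurons minus cortex, ran from -1.19 (standard error 1.02, *Syt13*) to 0.35 (standard error 0.17, *Slc17a7*). For *Pclo* the difference was -0.07 (standard error 0.12) and for *Bsn* 0.05 (standard error 0.13), which does not show that the effects were equal.

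The other genes of the pathway were counted from a list. Of 69 listed genes for fusion, priming, vesicles and endocytosis, 65 were tested between control neurons and control cortices, and 32 were higher and 14 lower in culture, where 24.8% and 27.3% of all genes were. *Ppfia2*, a liprin scaffold, rose most (log2 fold change 1.62, FDR = 4.41e-08), followed by *Stxbp5l*, a tomosyn that binds syntaxin (1.17), and *Snap91*, a clathrin adaptor (0.96), while *Unc13c* (-2.73), *Syt6* (-2.22) and *Slc18a3*, the vesicular acetylcholine transporter (-2.01), fell most. *Slc18a3* lay near the floor, at means of 0.788 CPM in control cortices and 0.189 CPM in control neurons, and *Unc13c* was low, at 5.62 and 0.850 CPM. In Phf6-/Y cortices 2 of the 65 were higher and 0 lower at an FDR below 0.05, against 0.319% and 0.0678% of all genes. *Dnm3*, another dynamin, was at 57.4 to 64.1 CPM in control and 71.6 to 99.0 CPM in Phf6-/Y cortices (log2 fold change 0.46 ± 0.08 SE, FDR = 0.0256), and *Lin7a*, a PDZ adaptor, at 17.5 to 20.3 CPM and 24.3 to 32.8 CPM (log2 fold change 0.60 ± 0.11 SE, FDR = 0.0368). Neither pair of ranges overlapped. In the neurons 0 of 64 were called by edgeR's test, with 6 higher and 2 lower at an unadjusted p below 0.05, against 5.87% and 4.46% of all genes, and *Dnm3* and *Lin7a* differed by 0.22 (FDR = 0.28) and 0.32 (FDR = 0.267).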

How the data were processed

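Paired-end reads of TruSeq Stranded libraries were aligned to mm10 with Rsubread and counted per gene with featureCounts by the authors, who deposited raw counts without normalization, and gene lengths. The strand setting is not given in the sources used here. The 15 per-sample files equal the series table. Rows without an identifier (1029 of 27179, 0.349% to 0.605% of counts), unmatched identifiers (875), pseudogenes (835), ribosomal RNA (35) and predicted genes (1273) were removed. The filter was filterByExpr at its defaults and scaling TMM. Tests used edgeR 4.0.16 (R 4.3.3, robust quasi-likelihood), with litter as a fixed term within each tissue and for the difference of genotype effects, and with 4 groups and no litter term between tissues. DESeq2 1.42.0 and limma 3.58.1 were alternatives. All tests were two-sided and adjusted over all genes tested. Differences within litters used log2(CPM + 0.5). Counts were simulated with 200 genes changed by 0.8 on the log2 scale. The changed genes were drawn from those above a minimum level. All genes were given the same spread between replicates, set in advance rather than estimated from these data. The edgeR fit recovered 200 in the cortex design (14614 genes), 198 in the neuron design (13774 genes) and 176 for the difference (14680 genes). False calls were 12, 10 and 11. The members' median genotype changes were smaller, at 0.126 in the cortex and 0.113 in the neurons. Changes of that size were not simulated, so the recovered counts do not bear on them. Nor do they bear on low-count members. *Sv2c* changed by 0.78 in the cortex and 0.88 in the neurons and was not called (edgeR FDR = 0.235 and 0.36).

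The members, the other gene lists and the tests were chosen with earlier results of these data known. Members shown per library were the 5 with the smallest p in each genotype comparison, the 5 that rose most and the 5 that fell most between control tissues, and the paralogue groups; other pathway genes were named if called by genotype or among the 3 largest changes each way between control tissues. *Unc13a* and *Syt1* in a plot, and the notes on paralogue shares that did not overlap by genotype, were chosen after their values were seen. Replicates were separate foetuses. No 2 libraries agreed within sampling noise (lowest chi-square per degree of freedom 7.0). Promoters are from RefSeq, GRCm38.p6; proteins and exon coverage were not analysed here.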

Additional observations from a re-analysis of the deposited data

Results flagged for a closer look

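Of 78 sets of 4 or 5 replicates examined, 1 for each member in the Phf6-/Y cortices and in the Phf6-deleted neurons, 4 held a library whose gap to the nearest other exceeded Dixon's 95% critical value, where chance alone gives about 1 in 20. *Syt13* was at 161 CPM in Phf6-/Y cortex replicate 1, against 13.1 to 20.9 CPM in the other 4. In Phf6-deleted neurons replicate 2, *Syt5* was at 78.1 CPM against 93.2 to 95.8 and *Syt7* at 112 CPM against 141 to 145. *Snap25* was at 251 CPM in Phf6-deleted neurons replicate 3 against 223 to 228.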

How the results depend on the processing

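The count of called members was 0 in the cortex under edgeR, limma-trend and each library left out, but 3 under DESeq2 and 1 without the low-count filter. In the neurons it was 0 under edgeR, limma-trend and DESeq2, 3 without the filter, and 0 to 4 with each library left out. With each library left out, 23 to 26 members were called between control tissues, 26 to 29 between deleted tissues and 0 for the difference of genotype effects. Scaling to pan-neuronal markers reversed *Syt1* (-0.021), *Syt7* (-0.23), *Syt11* (-0.19), *Sv2a* (-0.17), *Syt5* (-0.10), *Slc17a6* (-0.041) and *Rab3a* (-0.11). Scaling to library totals moved the median of all genes between control tissues from -0.036 to -0.178 and left 16 members higher and 7 lower. Litter, not replicate number, linked the samples, and equal numbers marked littermates only for cortex replicates 1 and 2. Deviations of same-numbered libraries correlated at 0.213, 0.013 and -0.224 in cortex and 0.194, -0.13 and 0.115 in neurons. Those of littermates correlated at -0.155 to 0.446 in cortex and 0.095 to 0.246 in neurons, so these values cannot decide which samples are paired. With the replicate block in place of litter, 0 members were called in cortex, 0 in neurons and 0 for the difference, and 26 were called between control tissues as well as between deleted tissues. Leaving out the length correction moved 102 of 112 paralogue shares by more than 1 SD. *Syt2*, *Sv2c* and *Syt13* had the lowest levels per length in control neurons, where counting error weighs most.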
